A study of Mus musculus with 6 samples.

Results

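The nuclear-encoded respiratory chain comprises the genes for proteins that are made in the cytosol, imported into mitochondria and built into the complexes of the inner membrane. Its members were the protein-coding genes whose symbols begin with Nduf, Uqcr, Cox4 to Cox8 or Atp5, together with Sdha, Sdhb, Sdhc, Sdhd, Cyc1 and Cycs. The rule found 95 genes among the 53465 in the count tables, of which 21942 are annotated as protein-coding. Of these, 85 encode subunits or cytochrome c, and the 8 Ndufaf genes encode assembly factors of complex I. Cox7a2l and Atp5s match the rule but encode a supercomplex factor and a coupling factor, and are given apart. Levels of these genes were compared between 2 groups of cultures of Royan B20, an established mouse embryonic stem cell line, with 3 libraries of poly(A)-selected RNA in each group.

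All cultures were grown on 0.1% gelatin with the self-renewal cytokine LIF and had been through 7 passages in R2i medium. R2i holds 1 µM of a MEK inhibitor, which the labels spell PD0329501, and 10 µM SB431542, which blocks the receptor kinases for activin, nodal and TGF-beta. The R2i_control group had nothing further. The R2i_BMPi group also received 250 nM noggin, a secreted antagonist of BMP ligands, and 5 µM dorsomorphin, a small molecule that inhibits BMP type I receptors. This second group is called BMP-inhibited after its label. Action of the agents on other targets was not measured, and whether the differences below arise through BMP receptors was not tested. The agents were given together and their effects cannot be told apart, and the duration of their addition is not given in the sources used here. The libraries come from 1 cell line, and nothing in the sources used here describes respiration, mitochondrial mass or protein levels.

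The respiratory chain passes electrons from NADH and succinate to oxygen and uses the energy to pump protons, and ATP synthase lets them flow back to make ATP. Complex I takes electrons from NADH and complex II from succinate. Both pass them to ubiquinone, from which complex III passes them through cytochrome c to complex IV. Complex V is ATP synthase. Most subunits are nuclear-encoded, while a small set of core subunits of complexes I, III, IV and V is encoded by mitochondrial DNA. Embryonic stem cells in naive media are known to use both glycolysis and respiration, and differentiation and primed pluripotency are accompanied by shifts between them.

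Gene counts totalled 31474666 to 35322844 per library, and 22363 to 22849 genes had at least 1 count. The first principal component held 82.7% of the variance and separated the groups. BMP-inhibited replicate 2 stood apart from the other BMP-inhibited libraries on the second component, at -27.1 against 20 and 4.76. Of 8 stem cell markers, summed at 4450 to 4580 CPM in controls and 3700 to 3850 in BMP-inhibited cells, 5 were lower and 1 higher. CPM is the usual depth-scaled count, here taken over a library's counts of tested genes with the TMM factor applied. Markers of the 2-cell-like state were at 0 to 0.0585 CPM in controls and 17.5 to 25.7 CPM in BMP-inhibited cells, and 5 of 5 tested were higher. Trophectoderm markers summed to 158 to 163 CPM in controls and 288 to 364 CPM in BMP-inhibited cells, with 4 of 5 tested higher. Most of the control sum was Tfap2c, at 128 and 137 CPM, which did not pass. Krt8 went from 18.1 to 90 CPM and Krt18 from 12 to 78.3 CPM, while Cdx2 and Elf5 were too low to be tested. Primitive endoderm markers were at 30.5 to 32.5 and 19.9 to 23.3 CPM, with 2 higher and 2 lower of 6 tested. Neuroectoderm markers were at 128 to 131 and 137 to 156 CPM, with 3 higher and 1 lower of 5 tested. Most of the neuroectoderm sum was Tubb3, at 105 and 103 CPM, which did not pass. Mesoderm markers were at 8.72 to 9.68 and 10.1 to 11 CPM, with 1 of 2 tested higher. Eomes made up most of these sums, at 8.95 and 9.2 CPM, and did not pass. Fibroblast markers were at 5.76 to 7.15 and 9.59 to 9.7 CPM, with 2 of 4 tested higher and with Col3a1 and Lum at 0 in all controls. Thy1, at 5.05 and 4.58 CPM, was most of the control sum and did not pass. The part of these cell states in the differences below was not tested, and in such bulk libraries fewer cells with a transcript and less of it per cell cannot be told apart.

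Respiratory chain genes moved in both directions, mostly by small steps. Of the 95 members 93 passed the count filter, and Cox8b and Cox8c did not. In edgeR's quasi-likelihood test, with adjustment over all genes tested and a threshold of 0.05, 35 were higher and 29 lower in BMP-inhibited cells and 29 did not pass. That is 68.8% of the members tested, beside 64.2% of all 15951 genes, and 71.9% of the 6734 genes with a mean of at least 30 CPM. Among the 83 subunits tested 34 were higher (41%, beside 32.5% of all genes) and 23 lower (27.7%, beside 31.7%). Of these subunits 74 had a mean of at least 30 CPM, and among all genes that abundant 40% were higher and 32% lower, so the share of higher subunits was near that of comparable genes. Without BMP-inhibited replicate 2 the subunit counts were 32 and 26. The median log2 fold change of the subunits was 0.04, and their median absolute log2 fold change was 0.22, beside 0.37 for all genes and 0.24 for genes of at least 30 CPM. Changes of at least 2-fold were seen for Cox4i2, Cox6a2 and Ndufaf3, 3 of the 93 tested. Of all genes 15.5% were called with such a change, but only 217 of the 6734 genes with a mean of at least 30 CPM. The 3 members were below that level. The 3 libraries of each group did not overlap for 70 members, with BMP-inhibited levels above in 40 and below in 30, where the share over all genes was 68.6%.

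The direction differed by complex. Subunits of complexes III, IV and V were more often higher than lower, with 5 and 3, 9 and 3, and 9 and 2 genes, and medians of 0.14, 0.22 and 0.19. The higher ones were 55.6%, 52.9% and 56.2% of those tested. Beside them stand 32.5% of all genes and 40% of genes with a mean of at least 30 CPM. Complex I subunits were more often lower, where 14 of 36 were lower (38.9%) and 9 higher (25%, median -0.03). The lower share was 31.7% over all genes and 32% over genes of at least 30 CPM. Of the 8 Ndufaf assembly factors 5 were lower and 0 higher, with a median of -0.24. These are descriptions of counts in small sets, and the difference between complexes was not tested.

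**Figure D1:**
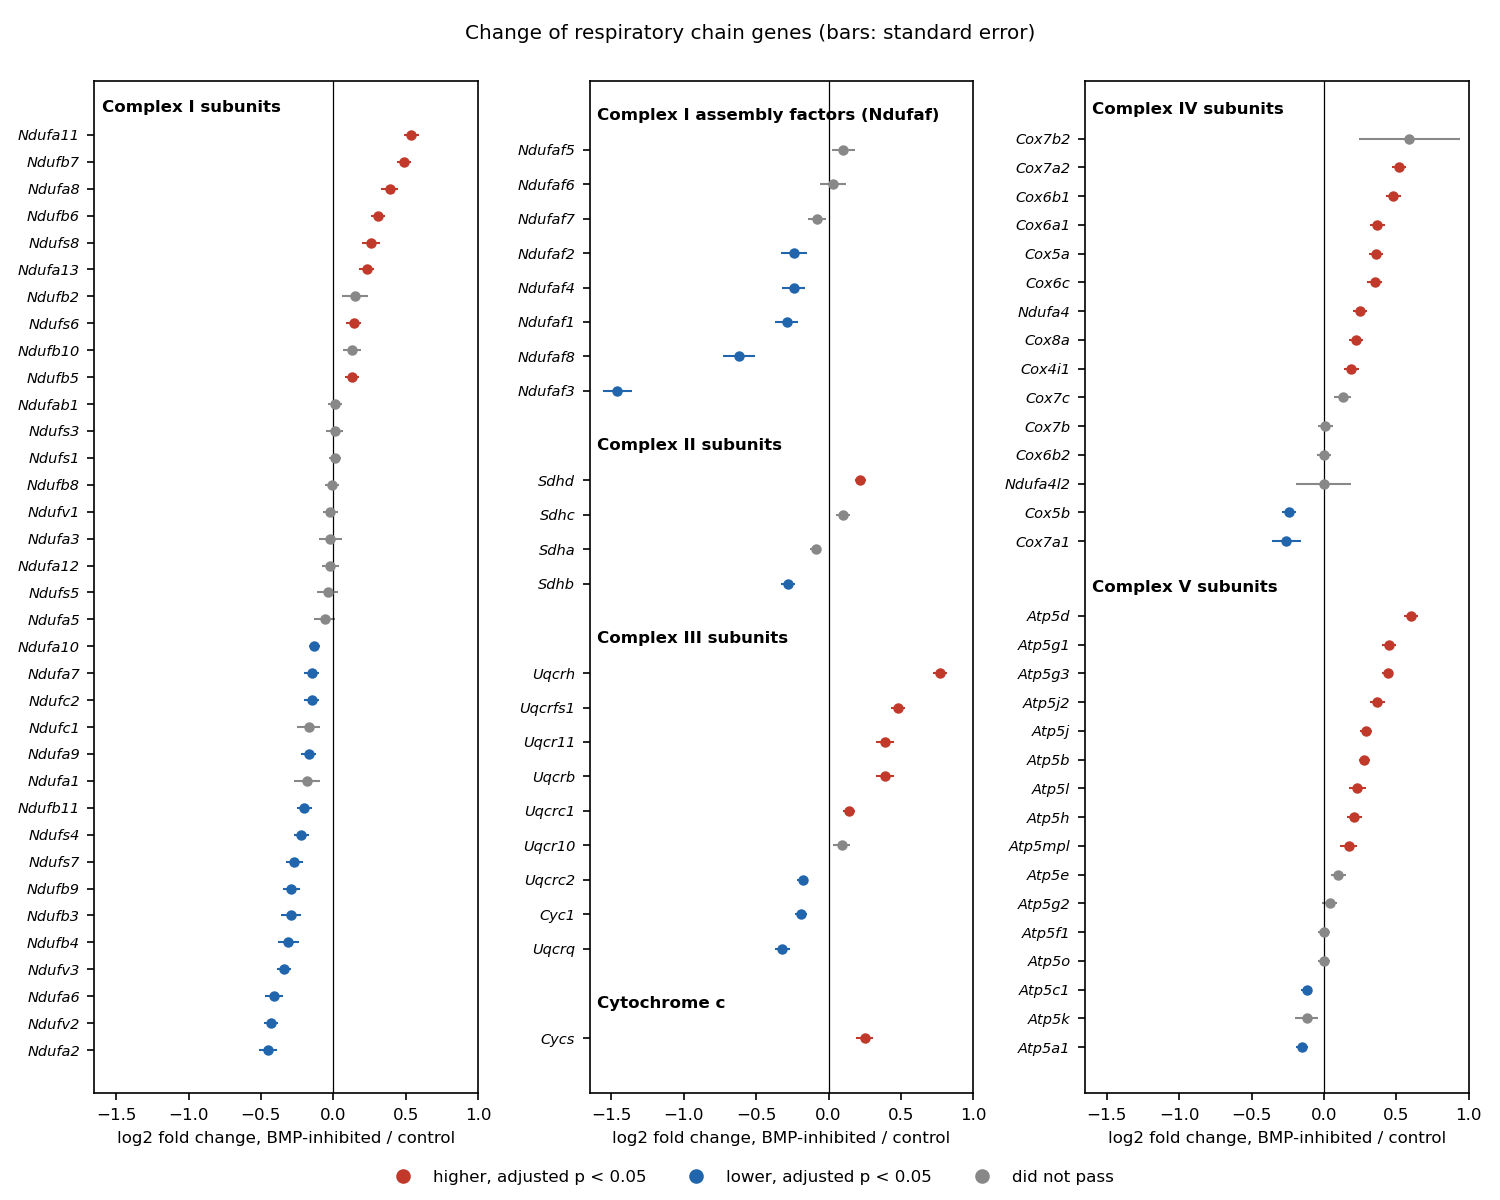
Log2 fold change (BMP-inhibited against control, x axis) of tested subunits and Ndufaf factors by complex, with its standard error as a bar; red and blue points passed an adjusted p of 0.05 as higher and lower, grey ones did not. Cox4i2 (4.02) and Cox6a2 (-6.59) are left out for scale; most points lie within 0.5 of 0, and Ndufaf3 at -1.46 is farthest from it.

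Promoters of respiratory genes are known to be bound by NRF1, by the ETS-family factor GABP and by YY1. RefSeq windows on GRCm38.p6, from 250 bases before to 50 after each start, were present for 77 members, 75 matched by symbol and 2 by an older symbol, in 82 windows. They were searched on both strands for the letters GCGCATGCG (NRF1), CCGGAAG (ETS) and the YY1 letters, which stand in capitals in the sequences of complex I genes that follow. The NRF1 letters are nearly their own reverse complement, so a match on each strand can overlap; letters of different factors overlapped in no member. The NRF1 letters were in the window of 11 of 77 members (14.3%), beside 1.95% of all genes with a window and 3.81% of the genes tested here. Of the windows themselves 13.4% of the members', 3.28% of those of tested genes and 1.75% of all 32851 held them. The ETS letters were in 18 members (23.4%, beside 18.9% of tested genes). By window they were in 22% of the members', beside 16.2% of those of tested genes and 8.86% of all. The YY1 letters were in 5 members (6.49%, beside 1.63% of tested genes). By window they were in 6.1% of the members', beside 1.31% of those of tested genes and 0.633% of all. A match is a run of letters, and binding was not measured.

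By direction, the NRF1 letters were in 7 of 29 members that were higher, 1 of 22 that were lower and 3 of 26 that did not pass. The ETS letters were in 12, 3 and 3 of the same genes, and the YY1 letters in 1, 4 and 0. These counts are small, and a link of letters with direction was not tested. The shares among all higher and all lower genes were not taken. The 8 members with NRF1 letters that passed the test, of which 7 were higher, are shown with up to 20 bases on either side. They are given on the strand of the gene. Capitals mark the letters, which run over both strands' matches where these overlap. Ndufaf4 is the gene that was lower.
Ndufa11: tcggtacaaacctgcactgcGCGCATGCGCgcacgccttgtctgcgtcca
Ndufa8: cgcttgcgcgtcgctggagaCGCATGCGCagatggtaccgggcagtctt
Uqcrc1: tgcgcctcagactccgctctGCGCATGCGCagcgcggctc
Uqcr11: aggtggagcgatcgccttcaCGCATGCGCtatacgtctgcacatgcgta
Cycs: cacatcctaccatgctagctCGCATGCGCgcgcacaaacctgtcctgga
Cox6a1: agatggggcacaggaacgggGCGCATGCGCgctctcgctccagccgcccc
Atp5l: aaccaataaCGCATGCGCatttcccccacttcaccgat
Ndufaf4: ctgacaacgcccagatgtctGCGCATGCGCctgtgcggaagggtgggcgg

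These stretches lie at chr17:56717682-56717731 on the plus strand for Ndufa11, chr2:36049319-36049367 on the minus strand for Ndufa8 and chr9:108936658-108936697 on the plus strand for Uqcrc1. Those of Uqcr11, Cycs, Cox6a1 and Atp5l lie on the minus strand at chr10:80406798-80406846, chr6:50566602-50566650, chr5:115349091-115349140 and chr9:44920955-44920992, and that of Ndufaf4 on the plus strand at chr4:24897950-24897999. The match in Uqcrc1 lies 31 to 40 bases after the start, and the Uqcrc1 call was lost in some alternatives, as given with complex III.

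Of the 77 members with a window 32 were complex I subunits and 7 were Ndufaf factors, while complexes II and III had only 3 and 5 genes. Among the 77 the YY1 letters were found only in genes of complex I, in 4 subunits and in Ndufaf8. In all 5 they lay on the gene's own strand within 50 bases after the start, and in 4 the ATG inside the letters is annotated as a start codon by GENCODE (Ndufa9, Ndufs4, Ndufs6 and Ndufs7). The first 50 transcribed bases are shown, with the letters in capitals.
Ndufa9: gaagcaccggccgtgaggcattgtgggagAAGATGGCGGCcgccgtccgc
Ndufs4: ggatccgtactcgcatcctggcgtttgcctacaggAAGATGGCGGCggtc
Ndufs7: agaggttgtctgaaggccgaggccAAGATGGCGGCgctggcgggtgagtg
Ndufaf8: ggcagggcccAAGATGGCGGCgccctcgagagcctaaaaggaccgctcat
Ndufs6: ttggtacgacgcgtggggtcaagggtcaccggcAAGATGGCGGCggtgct

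They lie at chr6:126849095-126849144, chr13:114388045-114388094 and chr13:73328433-73328482 on the minus strand for Ndufa9, Ndufs4 and Ndufs6, and at chr10:80249449-80249498 and chr11:120098934-120098983 on the plus strand for Ndufs7 and Ndufaf8. Ndufa9, Ndufs4, Ndufs7 and Ndufaf8 were lower in BMP-inhibited cells, with log2 fold changes of -0.17, -0.22, -0.27 and -0.62. Ndufs6 was higher by 0.14 (adjusted p = 0.0271), a call lost in 6 of 16 alternatives. The genes for the factors themselves were measured as well and are named for that reason. Nrf1 averaged 81.2 ± 1.04 CPM in controls and 82.8 ± 5.73 in BMP-inhibited cells (SD, n = 3) and did not pass (log2 fold change 0.03, adjusted p = 0.663). Gabpa and Yy1 rose by 0.32 and 0.19. Gabpa overlaps Atp5j on the opposite strand.

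Complex I oxidises NADH in its peripheral arm and passes electrons along iron-sulphur clusters to ubiquinone. Its nuclear-encoded core subunits carry out these steps, and they did not move together. Ndufv2, an iron-sulphur subunit of the NADH-oxidising module, was at 120, 120 and 113 CPM in controls and 83.6, 92 and 85.8 CPM in BMP-inhibited cells. All BMP-inhibited libraries were below all controls (log2 fold change -0.43, SE 0.05, adjusted p = 1.5e-06). Ndufv1, its partner that binds NADH and FMN, was at 165, 165 and 170 and then 151, 167 and 174 CPM, overlapping ranges with a log2 fold change of -0.02 (adjusted p = 0.736). Ndufs1, the largest subunit of that module, averaged 128 ± 0.387 CPM in controls and 129 ± 3.11 CPM in BMP-inhibited cells (0.01, adjusted p = 0.845).

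Core subunits near the ubiquinone site went different ways. Ndufs7 went from 66, 63 and 64.6 CPM to 50, 53.7 and 56.5 CPM, with no overlap (log2 fold change -0.27, SE 0.06, adjusted p = 0.000529). Ndufs8, which carries iron-sulphur clusters, went from 41.9, 39.9 and 42.9 CPM to 47.1, 50.9 and 51.7 CPM, with every BMP-inhibited library above (0.26, SE 0.06, adjusted p = 0.00105). Ndufs3 was at 66.5 ± 1.59 and 67 ± 4.5 CPM (0.01, adjusted p = 0.879). Ndufs1 and Ndufs3 overlap genes on the opposite strand, and Ndufs3 has a near-identical pseudogene copy, so their counts are uncertain.

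Accessory subunits surround this core. Of 13 in the Ndufa group 3 were higher and 5 lower, of 10 in the Ndufb group 3 were higher and 4 lower, and of the other 6 (Ndufc1, Ndufc2, Ndufs4, Ndufs5, Ndufs6 and Ndufv3) 1 was higher and 3 were lower. The largest rise was that of Ndufa11, a membrane subunit (ENSMUSG00000002379, chromosome 17, 56717767 to 56722141). It was at 72.2, 72.5 and 69 CPM in controls and 98.1, 110 and 104 CPM in BMP-inhibited cells (log2 fold change 0.54, SE 0.05, adjusted p = 1.97e-07). The groups did not overlap. Ndufa11 has 1 near-identical pseudogene and overlaps Vmac on the opposite strand, which had a log2 fold change of -1.30.

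Ndufb7 and Ndufa8, which lie on the intermembrane side of the membrane arm, rose as well. Ndufb7 went from 57.3, 60.3 and 58.9 CPM to 81.6, 80.2 and 85.4 CPM (0.49, SE 0.05), and Ndufa8 from 46.6, 42.8 and 49 CPM to 58.3, 60.7 and 61.9 CPM (0.39, SE 0.06). In both, the lowest BMP-inhibited library was above the highest control. Ndufb6, of the membrane arm, rose by 0.31 (SE 0.05), and Ndufa13 by 0.23. Ndufb7 has a near-identical copy, and Ndufb6 and Ndufa13 overlap opposite-strand genes. Ndufb5 rose by 0.13, a call lost in 7 of 16 alternatives.

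The accessory subunits with the largest falls belong to the peripheral arm. Ndufa2, of the NADH-oxidising module, was at 56.5, 57.6 and 55.6 CPM in controls and 40.4, 43.7 and 39.9 CPM in BMP-inhibited cells (log2 fold change -0.45, SE 0.06, adjusted p = 3.82e-06). Ndufa6, of the LYR-motif family, went from 75.5, 77.6 and 74 CPM to 52.7, 63 and 55.5 CPM (-0.41, SE 0.06). Ndufv3, a small subunit beside Ndufv1 and Ndufv2, went from 94.2, 97 and 90.7 CPM to 70.3, 79.1 and 73.5 CPM (-0.34, SE 0.05). The groups were separate for all 3 genes. In each, BMP-inhibited replicate 2 was the nearest to the controls. Ndufa2 overlaps Tmco6 on the opposite strand, itself at -0.29.

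Smaller falls were those of Ndufb4 (-0.31), Ndufb3 (-0.29), Ndufb9 (-0.29), Ndufs4 (-0.22), whose loss causes a mitochondrial encephalopathy in mice, Ndufb11 (-0.20) and Ndufa9 (-0.17). Ndufa7, Ndufc2 and Ndufa10 had log2 fold changes of -0.15, -0.15 and -0.13, and each of these calls was lost when a control or BMP-inhibited library was left out. With offsets for GC content and length Ndufa10 was at -0.07 and did not pass (adjusted p = 0.117), while Ndufa7 and Ndufa9 were at -0.24 and -0.30 and Ndufa13 at 0.14. With library totals alone Ndufb5 and Ndufs6 were each at 0.08. Ndufa7, Ndufb11 and Ndufs6 have near-identical copies, and Ndufa9, Ndufb5, Ndufb9, Ndufb11 and Ndufs6 overlap other genes. With library totals alone the complex I split was 6 higher and 16 lower. Over its 36 subunits complex I took 0.276% ± 0.00277 of gene counts in controls and 0.261% ± 0.0129 in BMP-inhibited cells (SD, n = 3), with BMP-inhibited libraries at 0.251%, 0.275% and 0.256% against 0.278%, 0.278% and 0.273%. These ranges overlap through replicate 2. Shares of gene counts, here and below, are of raw totals. They leave out the TMM factors, which were 1.014 to 1.027 in controls and 0.9729 to 0.9904 in BMP-inhibited libraries. Shares therefore put BMP-inhibited levels lower, relative to controls, than CPM and fold changes do.

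Assembly factors bind intermediates of complex I and are absent from the finished complex. Ndufaf3, which acts in building the ubiquinone module together with Ndufaf4, had the largest fall of any member above 10 CPM in controls (ENSMUSG00000070283, chromosome 9, 108565537 to 108567434). It was at 25.2, 27.4 and 25.5 CPM in controls and 8.36, 10.9 and 9.11 CPM in BMP-inhibited cells. Every BMP-inhibited library held less than the lowest control by a wide margin (log2 fold change -1.46, SE 0.10, adjusted p = 3.14e-09). Ndufaf3 overlaps exons of Impdh2 on the opposite strand, which was far more abundant and rose from 449 to 608 CPM. The strand setting of the counting is not given in the sources used here, so the Ndufaf3 counts are uncertain.

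Ndufaf8, a partner of Ndufaf5, was at 12.9, 12.4 and 12.6 CPM in controls and 7.27, 9.37 and 8.04 CPM in BMP-inhibited cells, with no overlap (-0.62, SE 0.11, adjusted p = 0.000103). Ndufaf5, which hydroxylates Ndufs7, averaged 14.6 ± 0.952 and 15.6 ± 0.323 CPM, short of the threshold (0.10, adjusted p = 0.305). Ndufaf1, of the assembly complex of the membrane arm, went from 36.3, 35.6 and 34.2 CPM to 28.4, 26.1 and 32.3 CPM, again separate (-0.29, SE 0.08, adjusted p = 0.0034). Ndufaf4 and Ndufaf2 had log2 fold changes of -0.24 and -0.24 (adjusted p = 0.0142 and 0.0324). Leaving out control replicate 1 gave Ndufaf4 an adjusted p of 0.0796 and Ndufaf2 an adjusted p of 0.186. Leaving out BMP-inhibited replicate 1 gave 0.0554 and 0.0855. In either case 3 of the 8 factors were lower. Ndufaf2 also missed the threshold without control replicate 3 (adjusted p = 0.0571) and without BMP-inhibited replicate 3 (adjusted p = 0.0578). Ndufaf6 and Ndufaf7, a methyltransferase, did not pass, at 0.03 and -0.08. Summed, the 8 factors took 0.0185% ± 0.000576 of gene counts in controls and 0.0143% ± 0.000567 in BMP-inhibited cells, and the groups did not overlap.

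**Figure D2:**
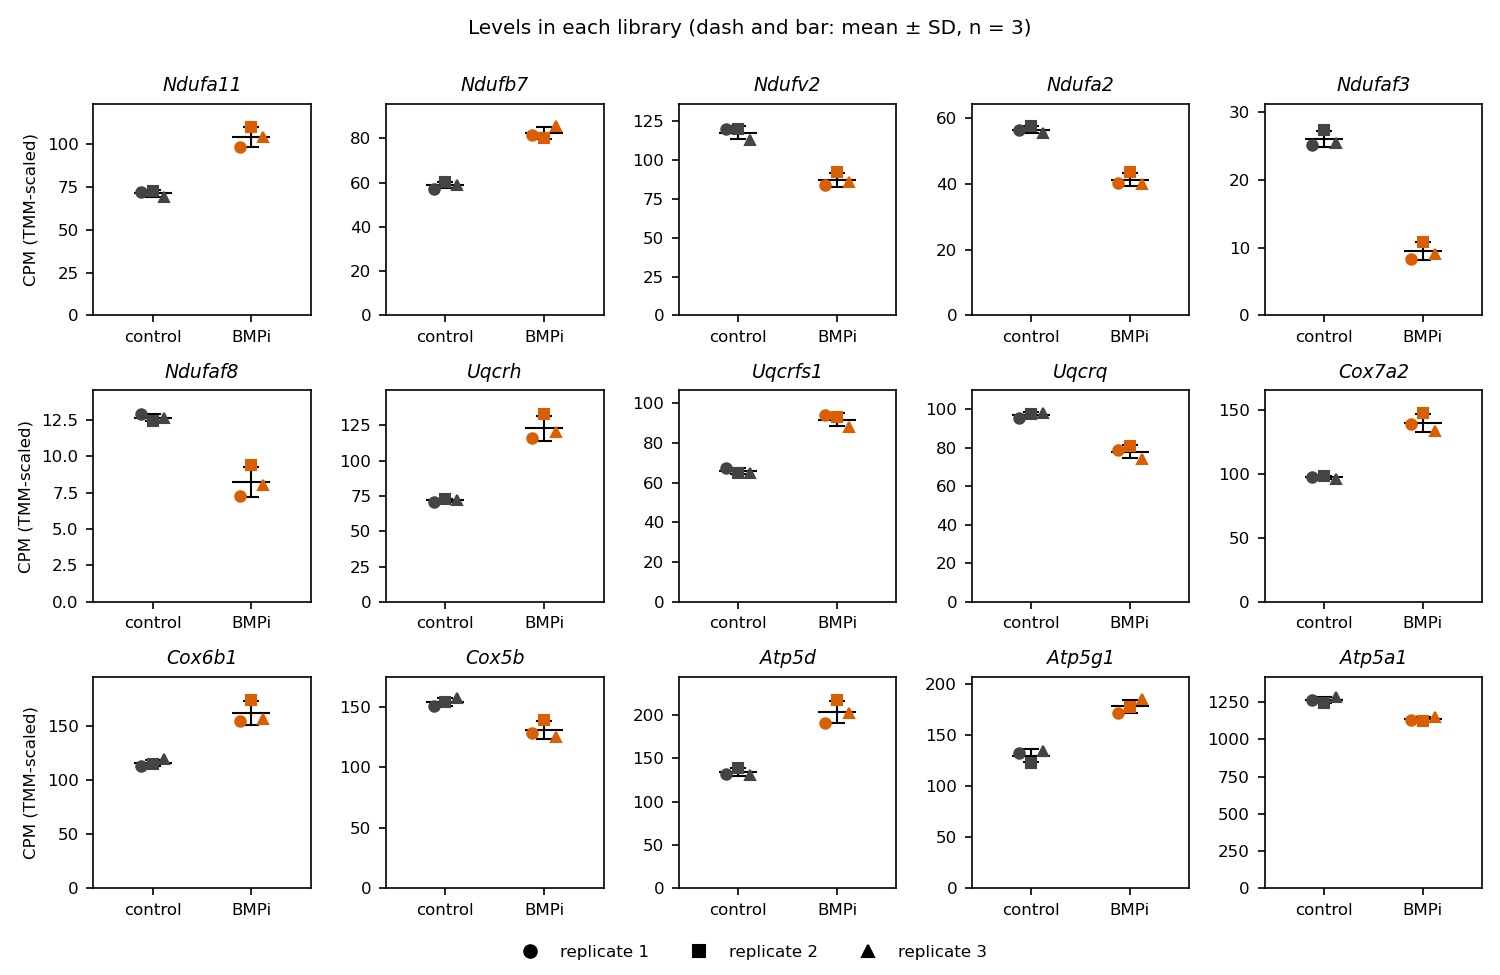
CPM (y axis, TMM-scaled, from 0) of 15 members in each control and BMP-inhibited library, with marker shapes for replicates and mean ± SD (n = 3). The 15 were chosen among members that passed the test, so separate groups in all panels reflect that choice. Over all genes tested the groups did not overlap for 68.6%. Ndufaf3 drops from 26.1 to 9.45 CPM and Uqcrh rises from 71.9 to 123 CPM, while Atp5a1 moves from 1260 to 1130 CPM.

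Complex II, succinate dehydrogenase, is nuclear-encoded in full and also works in the tricarboxylic acid cycle. Of its 4 subunits 1 was higher, 1 lower and 2 did not pass. Sdhb, the iron-sulphur subunit, was at 115, 118 and 117 CPM in controls and 91, 100 and 95.5 CPM in BMP-inhibited cells (log2 fold change -0.28, SE 0.05, adjusted p = 6.87e-05). Sdhd, a membrane anchor, was at 138, 136 and 134 CPM and then 153, 157 and 166 CPM (0.22, SE 0.04, adjusted p = 0.000411). The groups were separate for both genes, in opposite directions. The flavoprotein Sdha was at 337, 328 and 329 and then 307, 315 and 311 CPM, also separate, but did not pass (-0.09, adjusted p = 0.0514). It passed as lower in 6 of 16 alternatives, including without BMP-inhibited replicate 2 (adjusted p = 0.0348). The other anchor, Sdhc, was at 97.3 ± 1.15 and 104 ± 4.36 CPM (0.10, adjusted p = 0.0655) and passed without BMP-inhibited replicate 1 (0.14, adjusted p = 0.00885).

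In complex III the redox subunits moved in opposite directions. Uqcrfs1, the Rieske iron-sulphur protein, was at 67.3, 64.6 and 64.9 CPM in controls and 94, 93.2 and 87.7 CPM in BMP-inhibited cells (0.48, SE 0.05, adjusted p = 4.27e-07). Cyc1, which carries the haem of cytochrome c1, was at 223, 226 and 217 CPM and then 189, 196 and 200 CPM (-0.19, SE 0.04, adjusted p = 0.000974). The groups did not overlap in either gene. Cycs, the mobile carrier cytochrome c, went from 45.6, 43.2 and 46.6 CPM to 51.2, 55.8 and 53.7 CPM, each BMP-inhibited library above each control (0.25, SE 0.06, adjusted p = 0.00141).

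Uqcrh, the hinge protein beside cytochrome c1, rose more than any other subunit except Cox4i2 (ENSMUSG00000063882, chromosome 4, 116066965 to 116075071). It was at 70.8, 72.9 and 71.9 CPM in controls and 116, 133 and 120 CPM in BMP-inhibited cells (log2 fold change 0.77, SE 0.05, adjusted p = 5.24e-09). The lowest BMP-inhibited library stood well above the highest control. It overlaps no other gene and has no near-identical copy. Its promoter window, chr4:116075021-116075320 on the minus strand, is shown as that of the subunit with the largest rise at an abundant level, with the ETS letters 10 to 4 bases before the start in capitals.
Uqcrh: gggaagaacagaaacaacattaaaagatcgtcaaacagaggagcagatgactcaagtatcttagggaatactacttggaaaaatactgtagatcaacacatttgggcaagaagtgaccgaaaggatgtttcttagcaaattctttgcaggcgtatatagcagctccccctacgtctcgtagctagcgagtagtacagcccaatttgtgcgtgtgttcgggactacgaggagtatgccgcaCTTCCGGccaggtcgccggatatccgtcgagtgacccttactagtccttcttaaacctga

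Other small subunits of complex III were Uqcr11 and Uqcrb, which rose by 0.39 and 0.39 (SE 0.06 and 0.06), Uqcrq and Uqcr10. Uqcrq was at 95.2, 97.5 and 98.1 CPM and then 78.7, 80.7 and 74.1 CPM, with no overlap (-0.32, SE 0.05). Uqcr10 did not pass (0.09, adjusted p = 0.235). Of the core proteins, Uqcrc2 fell by 0.18 on the log2 scale, while Uqcrc1 was at 314 ± 5.56 and 346 ± 18.6 CPM (0.14, adjusted p = 0.0122). The Uqcrc1 call was lost with library totals alone (0.08, adjusted p = 0.121), without control replicate 2 (adjusted p = 0.068) and without control replicate 3 (adjusted p = 0.053). With offsets for GC content and length Cyc1 was at -0.33 and Uqcrc2 at -0.29. Uqcr10 passed as higher only with those offsets and the replicate block together (0.12, adjusted p = 0.0219). Uqcrb has 4 near-identical copies, and Uqcrb and Uqcrc2 overlap genes on the opposite strand.

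Complex IV, cytochrome c oxidase, reduces oxygen. Its nuclear subunits sit around a mitochondrially encoded core, and several come in ubiquitous and tissue-restricted isoforms. Of the 11 ubiquitous subunits 8 rose, 1 fell and 2 did not pass. The risen ones were 72.7%, beside 32.5% of all genes and 40% of genes with a mean of at least 30 CPM. Of the 6 tested tissue isoforms 1 rose, 2 fell and 3 did not pass. Cox7a2 (ENSMUSG00000032330, chromosome 9, 79755361 to 79759878) was at 97.9, 98.6 and 96.6 CPM in controls and 139, 148 and 134 CPM in BMP-inhibited cells (0.52, SE 0.05, adjusted p = 1.03e-07). Cox6b1, on the intermembrane face, was at 113, 115 and 119 CPM and then 154, 174 and 156 CPM (0.48, SE 0.05). In both genes the groups were far apart.

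Cox6a1, Cox5a and Cox6c rose by 0.37, 0.36 and 0.35, Ndufa4 by 0.25, Cox8a by 0.22 and Cox4i1 by 0.19 (SE 0.05 for each). Ndufa4 bears a complex I name but is a subunit of complex IV. The faller was Cox5b, which binds zinc, at 151, 154 and 157 CPM and then 128, 139 and 125 CPM, with no overlap (-0.24, SE 0.05, adjusted p = 0.000416). Cox7b (0.01, adjusted p = 0.893) and Cox7c (0.13, adjusted p = 0.0598) did not pass. Cox7c passed as higher when BMP-inhibited replicate 3 was left out (0.19, adjusted p = 0.0105), as it did without replicate 1 of that group or if genes were not filtered, and was at 0.06 when replicate 2 was left out. With offsets for GC content and length Cox4i1 was at 0.09 and Ndufa4 at 0.15, both still higher, and with the block added Cox5a was at 0.23. Cox5a, Cox6a1 and Cox7c have near-identical copies, and Cox4i1, Cox5a and Cox6c overlap opposite-strand genes.

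The complex IV sum went from 0.192% ± 8.19e-05 of gene counts to 0.215% ± 0.0149, at 0.207%, 0.233% and 0.206% in the BMP-inhibited libraries, all above the controls. Replicate 2 was the highest of them, and over all 83 subunits tested that library was the highest of the BMP-inhibited ones for 59. Without it, 9 complex IV subunits were higher and 2 lower.

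The isoform genes differed most. Cox6a2, the heart and skeletal muscle isoform of subunit VIa, was at 3.51, 3.23 and 3.47 CPM in controls and 0.0323, 0.0321 and 0.0305 CPM in BMP-inhibited cells (ENSMUSG00000030785, chromosome 7, 128205435 to 128206387). Over 3 libraries each, controls held 352 counts of it and BMP-inhibited cells held 3, which is 108-fold lower (95% counting interval 36.5 to 524; adjusted p = 6.91e-10). The fitted log2 fold change was -6.59. Its opposite-strand neighbour Itgad was near 0.01 CPM in both groups. Per length of merged exons Cox6a2 made up 2.04% of the Cox6a1 and Cox6a2 sum in controls and 0.015% in BMP-inhibited cells.

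Cox4i2, an isoform known from lung and induced by hypoxia, went the other way from a very low level (ENSMUSG00000009876, chromosome 2, 152754173 to 152765037). It was at 0.0878, 0.0552 and 0 CPM in controls and 0.775, 0.835 and 0.914 CPM in BMP-inhibited cells, from 5 counts against 80, making it 17.5-fold higher (95% counting interval 7.18 to 55.2; adjusted p = 1.16e-05). The groups were separate. The intervals cover counting error only. In BMP-inhibited cells Cox4i2 was still 0.415% of the Cox4i1 and Cox4i2 sum per length, against 0.0271% in controls.

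Cox6b2, known as the testis isoform of subunit VIb, was abundant in these cells, at 89.6, 85.7 and 89.8 CPM in controls and 87.1, 90.1 and 88.2 CPM in BMP-inhibited cells. The ranges overlapped, with a log2 fold change of 0.00 (adjusted p = 0.985). With Cox6b1 higher, the Cox6b2 share of that pair per length went from 32.8% ± 0.727 to 26% ± 0.954 (SD, n = 3; 44.7% and 36.7% by the length of the principal transcript), and the groups did not overlap. Cox7a1, the muscle isoform, was at 10.5, 10.1 and 9.35 CPM and then 8.4, 7.87 and 8.83 CPM, separate and lower (-0.26, SE 0.10, adjusted p = 0.039). This call was lost in 9 of 16 alternatives, DESeq2 among them (adjusted p = 0.0658). Beside the risen Cox7a2, the Cox7a1 share per length went from 15.3% ± 0.686 to 9.55% ± 0.916. The shares were not tested.

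Among the remaining isoforms Ndufa4l2, induced by hypoxia in other cells, was at 3.77, 2.54 and 3.8 CPM and then 3.1, 3.18 and 3.78 CPM (0.00, adjusted p = 0.988), while Shmt2 on the opposite strand went from 475 to 245 CPM. Cox7b2 averaged 0.501 ± 0.0211 and 0.753 ± 0.247 CPM, short of the threshold (0.59, adjusted p = 0.152). Cox8c had 6 and 3 counts, and Cox8b had 0 counts in all 6 libraries, where 3 counts would be 0.0828 to 0.0969 CPM. Cox7a2l, which helps to join complexes III and IV into supercomplexes, rose from 133, 134 and 134 CPM to 146, 151 and 156 CPM (0.18, SE 0.04, adjusted p = 0.00172).

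**Figure D3:**
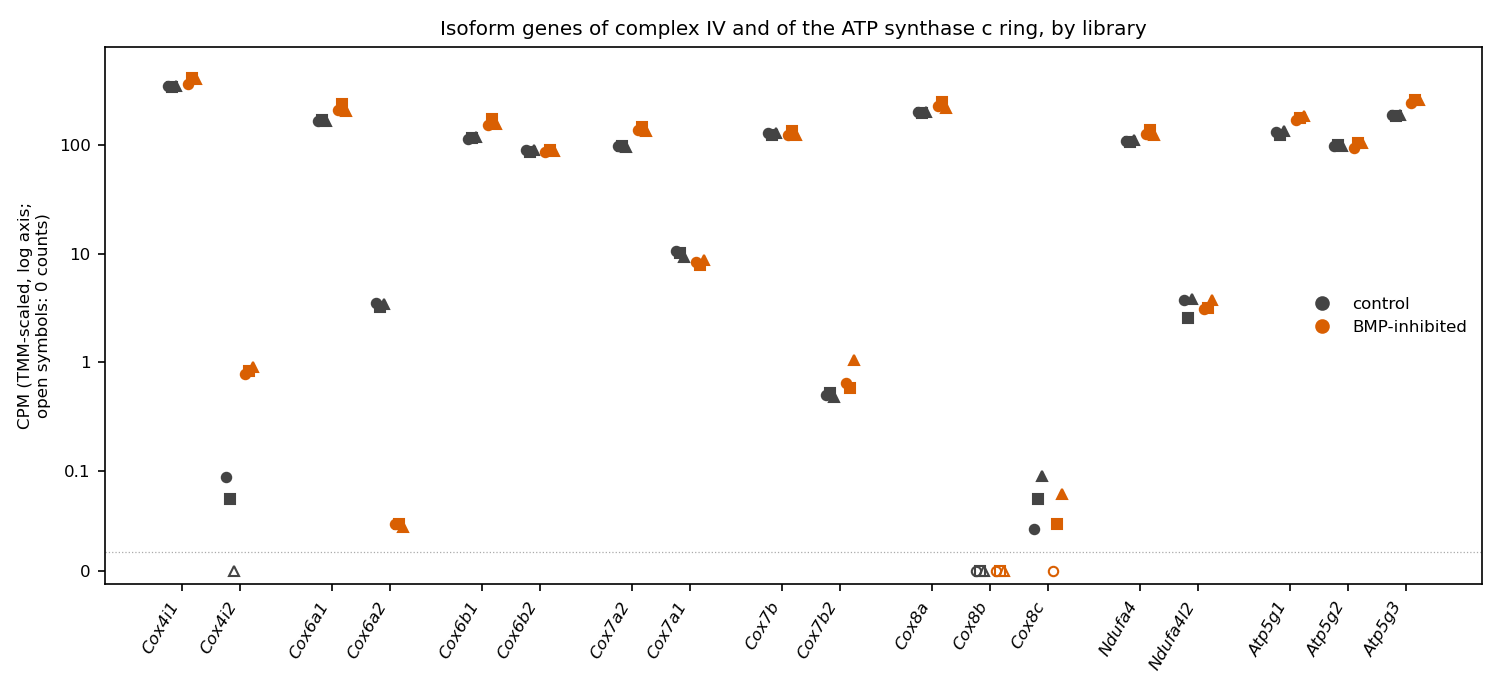
CPM (y axis, log scale) of isoform genes of complex IV and of the c ring in each library, control in grey and BMP-inhibited in orange, with open symbols for 0 counts. Cox6a2 falls from 3.4 to 0.0316 CPM and Cox4i2 rises from 0.0476 to 0.841 CPM, while Cox6b2 lies at 88.4 and 88.5 CPM.

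Complex V makes ATP in its F1 head, driven by the rotation of a c ring in the membrane. The catalytic pair went in opposite directions. Atp5b, the beta subunit (ENSMUSG00000025393, chromosome 10, 128083273 to 128090391), was at 1440, 1430 and 1490 CPM in controls and 1730, 1730 and 1850 CPM in BMP-inhibited cells (0.28, SE 0.04, adjusted p = 1.1e-05). Atp5a1, the alpha subunit (ENSMUSG00000025428, chromosome 18, 77773729 to 77782869), was at 1260, 1240 and 1280 CPM and then 1130, 1120 and 1150 CPM (-0.15, SE 0.04, adjusted p = 0.00155). The groups were separate in both. Per kilobase of merged exons these were the most abundant members in controls, with Atp5a1 at 402 and Atp5b at 343 CPM per kb, and in BMP-inhibited cells at 361 and 417. By principal transcript Atp5b was the higher in controls too, at 757 against 510 CPM per kb, so the order of the pair depends on the length used. Atp5a1 overlaps Haus1 on the opposite strand, which fell by 0.75, and Atp5b has 1 near-identical copy.

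Of the central stalk, Atp5d, the delta subunit (ENSMUSG00000003072, chromosome 10, 80138632 to 80145818), was at 132, 139 and 131 CPM in controls and 191, 217 and 202 CPM in BMP-inhibited cells. This was the largest change among the subunits of complex V (0.60, SE 0.05, adjusted p = 4.38e-08), with the groups far apart. Atp5d overlaps Cbarp on the opposite strand, which fell by 1.07. Atp5c1, the gamma subunit, was at 265 ± 6.77 and 244 ± 11 CPM (-0.12, adjusted p = 0.0261). The call was lost without control replicate 1 (adjusted p = 0.121), control replicate 3 (adjusted p = 0.0547) or BMP-inhibited replicate 1 (adjusted p = 0.0754), which left 1 lower subunit in complex V. Atp5e, the epsilon subunit, did not pass (0.10, adjusted p = 0.0889).

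The c ring is built of a single protein encoded by Atp5g1, Atp5g2 and Atp5g3, which differ in their targeting sequences. Atp5g1 was at 133, 123 and 134 CPM in controls and 172, 178 and 185 CPM in BMP-inhibited cells (0.45, SE 0.05, adjusted p = 5.72e-07). Atp5g3 was at 189, 184 and 190 CPM and then 244, 262 and 260 CPM (0.44, SE 0.04, adjusted p = 2.27e-07). Both were separate, while Atp5g2 overlapped, at 97.3, 99.9 and 97.7 and then 94.4, 105 and 104 CPM (0.04, adjusted p = 0.485). Per length Atp5g3 made up 50.2% of the family in controls and 54.8% in BMP-inhibited cells, Atp5g2 34.3% and 28.2%, and Atp5g1 15.5% and 17%. Atp5g2 has near-identical copies, annotated as Gm10175 and Gm10231.

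In the peripheral stalk, Atp5j rose by 0.29 (SE 0.04) and Atp5h by 0.21 (SE 0.05), whereas Atp5f1 was at 240 ± 2.35 and 240 ± 2.55 CPM (0.00, adjusted p = 0.98) and Atp5o at 215 ± 5.3 and 215 ± 9.52 CPM (0.00, adjusted p = 0.98). Of 4 small membrane subunits Atp5j2, Atp5l and Atp5mpl rose by 0.37, 0.23 and 0.17 and Atp5k did not pass (-0.12, adjusted p = 0.199). Atp5mpl missed the threshold in 3 alternatives, with 0.11 (adjusted p = 0.106) under library totals alone. Without BMP-inhibited replicate 2 Atp5k was lower (-0.20, adjusted p = 0.0223), and without BMP-inhibited replicate 3 its log2 fold change was -0.02. Atp5h and Atp5l have 5 and 13 near-identical copies, and how reads shared with them were counted is not given in the sources used here, so these counts are uncertain. Atp5j, Atp5f1 and Atp5o overlap opposite-strand genes. With offsets for GC content and length Atp5g2 and Atp5o were lower, at -0.12 and -0.14, and complex V had 9 higher and 4 lower subunits. The same offsets gave Atp5h 0.10 (adjusted p = 0.0386), a call lost when the replicate block was added (adjusted p = 0.051), and Atp5c1 -0.20. Complex V took 0.463% ± 0.00414 of gene counts in controls and 0.488% ± 0.0114 in BMP-inhibited cells, with no overlap.

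Atp5s, coupling factor B, which is not counted among the subunits, fell from 14.5, 12.5 and 13.1 CPM to 6.62, 9.05 and 8.34 CPM (-0.74, SE 0.12, adjusted p = 4.98e-05). The groups were separate. Over all 85 subunits 30 overlap exons of another gene, 27 of them on the opposite strand, and 17 have a near-identical copy. Among the 53 tested subunits without an overlap 21 were higher and 16 lower, and among the 66 without a copy 25 and 20.

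The summed share of all members overlapped between the groups. All members together took 1.16% ± 0.00403 of gene counts in controls and 1.19% ± 0.0444 in BMP-inhibited cells, at 1.15%, 1.24% and 1.19% in the 3 BMP-inhibited libraries, which lay on both sides of the controls. By contrast, the 13 mitochondrially encoded subunits took 0.919% ± 0.0292 in controls and 1.47% ± 0.0683 in BMP-inhibited cells, with no overlap. Of these 12 were tested, and 11 were higher (91.7%, beside 32.5% of all genes) and 0 lower. Their median log2 fold change was 0.69, beside 0.04 for the nuclear-encoded subunits. Among them mt-Nd1, mt-Nd2 and mt-Nd5, core subunits of complex I, rose by 0.90, 0.88 and 0.83. Those 3 overlap neighbouring mitochondrial genes. The libraries were poly(A)-selected, and how fully mitochondrial transcripts were captured was not measured. The difference between the sets was not tested.

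**Figure D4:**
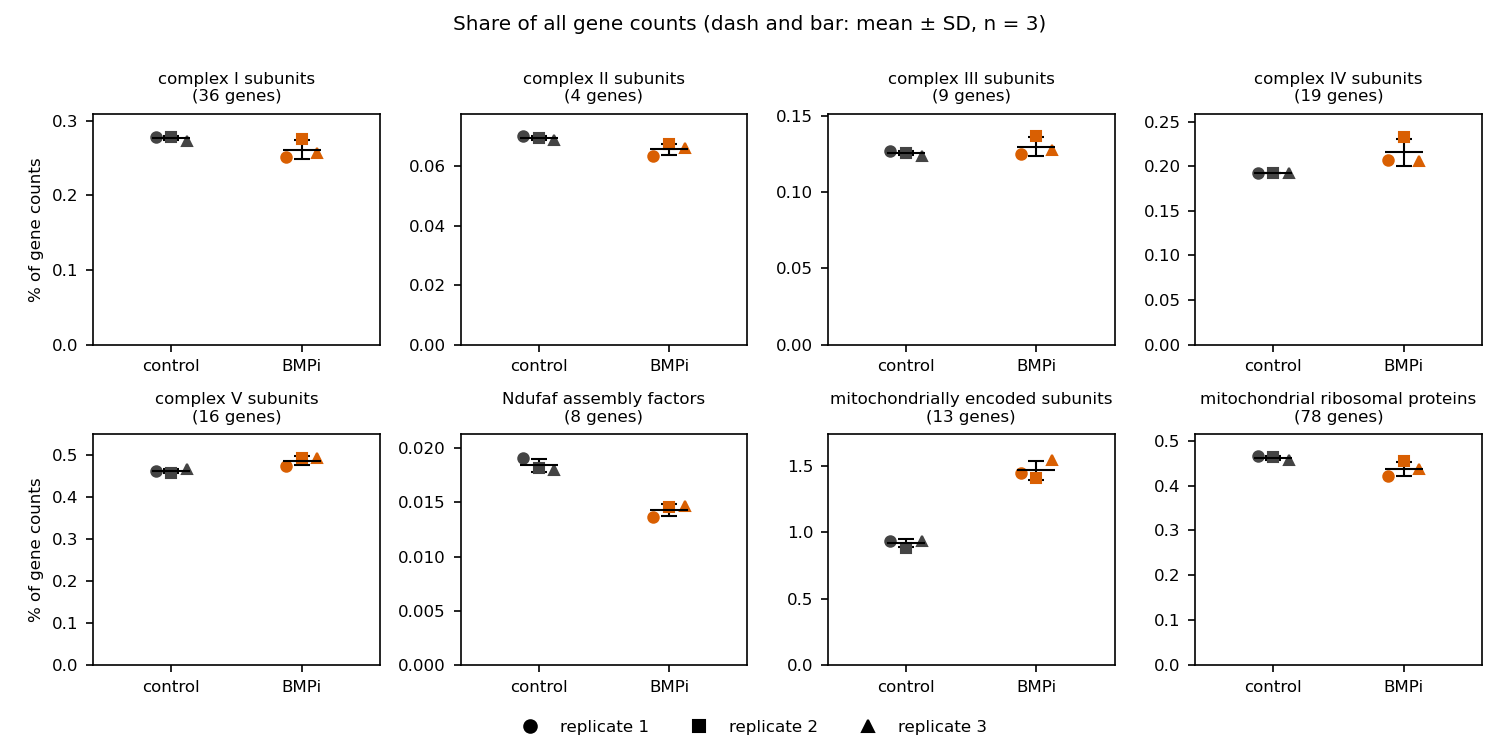
Share of all gene counts (%, y axis from 0) taken by each complex, the Ndufaf factors, the mitochondrially encoded subunits and the mitochondrial ribosomal proteins in each library, with mean ± SD (n = 3). The mitochondrially encoded share goes from 0.919% to 1.47% and the Ndufaf share from 0.0185% to 0.0143%, while complex I lies at 0.276% and 0.261% with overlapping libraries.

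Assembly factors whose symbols fall outside the rule were more often lower than higher. Of 54 tested for complexes I to V, 25 were lower (46.3%, beside 31.7% of all genes), 9 were higher (16.7%, beside 32.5%) and 20 did not pass, with a median of -0.18. For complex I these were 8 lower and 3 higher of 13. Tmem186 and Tmem242 fell by 0.84 and 0.91, and Nubpl, which inserts iron-sulphur clusters, by 0.78, while Aifm1, Acad9 and Dmac2 rose by 0.40, 0.30 and 0.28. Of 7 for complex III 5 were lower, among them Uqcc3 at -1.21, Lyrm7, a chaperone of the Rieske protein, at -1.29, and Bcs1l, which inserts that protein, at -0.61. Hccs, which attaches haem to cytochromes c and c1, rose by 0.43.

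Of 26 for complex IV 10 were lower and 4 higher. Apopt1 went from 47.8 ± 0.822 to 12.9 ± 2.23 CPM (SD, n = 3; -1.89, SE 0.09, adjusted p = 1.72e-10), and Cmc1 and Surf1 fell by 0.99 and 0.47, while Cox15, Higd1a and Cox11 rose by 0.20, 0.25 and 0.24. The Cox11 call was lost in 6 of 16 alternatives, among them without control replicate 1 or 2 or BMP-inhibited replicate 1. With library totals alone the split was 12 lower and 2 higher. For complex II 1 of 4 was lower (Sdhaf1, -0.52), and for complex V 2 of 5 were lower (Tmem242, listed for both complexes, and Atpaf1, -0.28) and Tmem70 rose by 0.24, or 0.09 with offsets for GC content and length, where it did not pass (adjusted p = 0.231). Tmem186, Acad9, Sdhaf1, Hccs, Apopt1, Surf1, Cox15, Higd1a and Cox11 overlap other genes.

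Ubiquinone, the carrier between these complexes, is made by the Coq enzymes, most of which were lower. Of 13 genes 8 fell (61.5%, beside 31.7% of all genes) and 2 rose (15.4%, beside 32.5%). Coq2, which joins the ring to its tail, went from 49.1 ± 2.14 to 28.9 ± 1.03 CPM (-0.76, SE 0.06, adjusted p = 3e-08), and Coq3 and Coq9 had log2 fold changes of -0.72 and -0.59. Coq10b and Coq6 rose by 0.27 and 0.17, and with library totals alone 0 rose and 8 fell. Without control replicate 3 or BMP-inhibited replicate 3 neither passed (adjusted p = 0.0905 and 0.0828 for Coq10b, 0.096 and 0.124 for Coq6), and Coq6 also missed the threshold without control replicate 1 or 2. Coq9, Coq6 and Coq10b overlap opposite-strand genes. Enzymes that feed ubiquinone from other substrates were split, 4 higher (57.1%) and 3 lower (42.9%) of 7. Gpd2, of the glycerol phosphate shuttle, rose from 118 ± 4.27 to 215 ± 15.2 CPM (0.86, SE 0.05), and Chdh, choline dehydrogenase, from 0.0772 ± 0.0167 to 1.22 ± 0.388 CPM, whereas Prodh, proline dehydrogenase, fell by 0.83. Etfdh rose by 0.32, and Dhodh and Etfb fell by 0.32 and 0.35. Gpd2, Chdh, Etfdh and Etfb overlap other genes.

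In the tricarboxylic acid cycle and pyruvate dehydrogenase, which supply NADH and succinate, 8 of 18 genes rose and 4 fell. These are 44.4% and 22.2%, beside 32.5% and 31.7% of all genes. Idh3a and Mdh2 rose by 0.48 and 0.48 and Sucla2 by 0.29, while Idh2, Suclg2 and Idh3g fell by 0.64, 0.44 and 0.29. With library totals alone the split was 5 and 5. Of 28 protein import genes 8 rose (28.6%) and 4 fell (14.3%). Timm17a, Tomm20 and Timm23 were higher by 0.55, 0.33 and 0.30, and Hspa9, Dnajc19 and Timm10b lower, at -0.40, -0.50 and -0.53. Of 14 cristae genes 8 rose (57.1%) and 4 fell (28.6%). The prohibitins Phb and Phb2 rose by 0.66 and 0.23 and the metaxin Mtx2 by 0.22, while Chchd3, Oma1 and Apool had log2 fold changes of -0.68, -0.88 and -0.58. With library totals alone import had 6 and 6 and cristae 5 and 6. Timm10b missed the threshold without control replicate 3 (adjusted p = 0.0577). Timm23, Dnajc19, Timm10b and Phb2 overlap other genes.

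Of 17 genes of mitochondrial DNA upkeep and transcription 3 rose (17.6%, beside 32.5% of all genes) and 8 fell (47.1%, beside 31.7%). Tfb2m, Mterf3 and Tfam, which packages mitochondrial DNA, rose by 0.55, 0.20 and 0.14, while Rrm2b, Dguok and Tk2, which supply its nucleotides, fell by 1.06, 0.62 and 0.59. With library totals alone 2 rose and 10 fell. The Tfam call was lost in 5 of 16 alternatives, with 0.09 (adjusted p = 0.176) without control replicate 2 and an adjusted p of 0.0751 without control replicate 3. Of 12 tested regulators of mitochondrial biogenesis 6 rose (50%) and 4 fell (33.3%). Myc rose from 2.58 ± 0.376 to 16.2 ± 1.83 CPM, Pparg from 0.0474 ± 0.0306 to 2.19 ± 0.401 CPM and Pprc1 by 0.39, while the coactivator gene Ppargc1b fell from 9.46 ± 0.475 to 4.25 ± 0.779 CPM (-1.15, SE 0.14) and Tfe3 and Esrrb fell by 0.41 and 0.32. Mitochondrial ribosomal proteins, which translate the mitochondrially encoded subunits, were split, 21 of 77 being higher (27.3%) and 16 lower (20.8%, median 0.04), or 12 and 23 with library totals alone. Mrps24, Mrps11 and Mrpl18 rose by 0.51, 0.50 and 0.41, and Mrpl24, Mrpl17 and Mrps2 had log2 fold changes of -0.74, -0.64 and -0.55. All 78 such genes together took a share of gene counts of 0.462% ± 0.00428 in controls and 0.437% ± 0.016 in BMP-inhibited cells. Rrm2b, Mterf3, Pprc1, Mrps24, Mrps11, Mrpl18 and Mrpl24 overlap other genes.

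**Figure D5:**
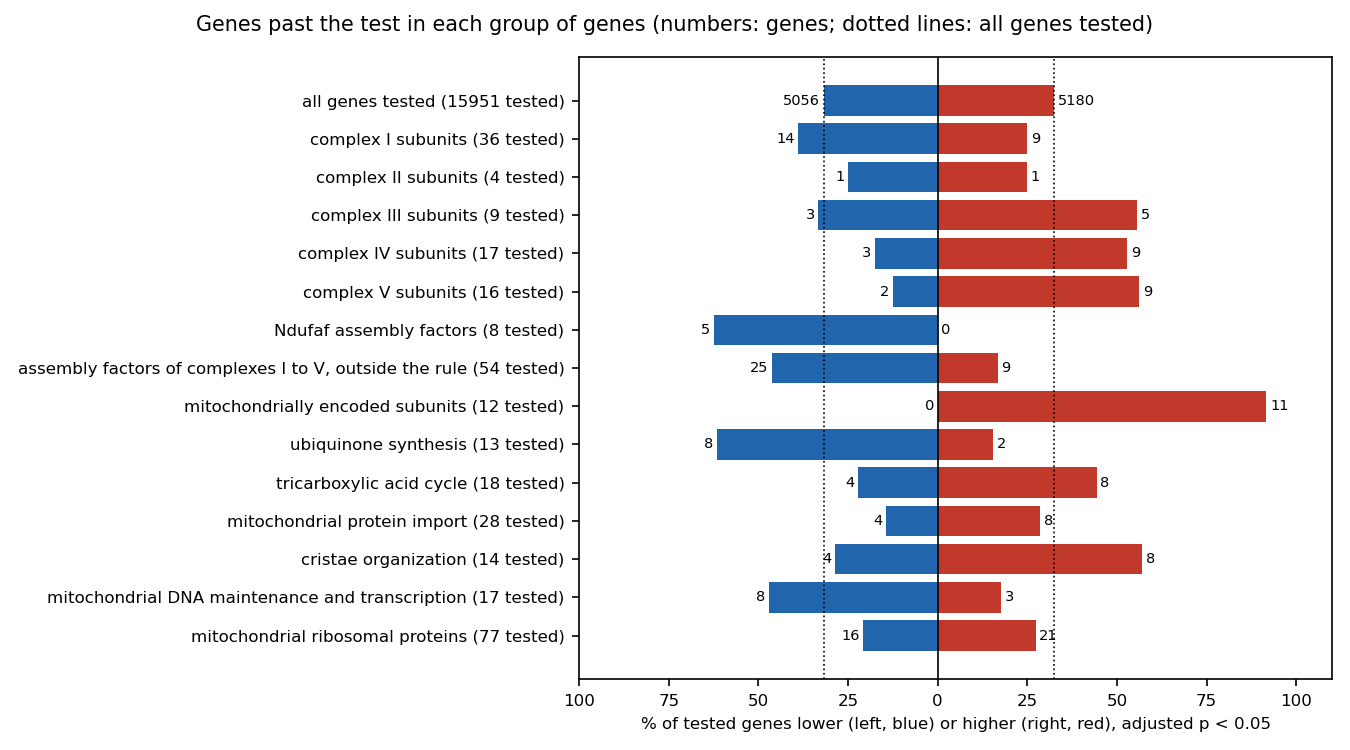
Percentage of the tested genes of each group that were higher (red, right) or lower (blue, left) in BMP-inhibited cells, with the number of genes at each bar and the shares among all genes as dotted lines (32.5% and 31.7%). Complexes III to V extend farther to the right than the line, and the Ndufaf factors, the other assembly factors and ubiquinone synthesis farther to the left.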

How the data were processed

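Poly(A)-selected, strand-marking RNA libraries of 3 control and 3 BMP-inhibited cultures were compared, and the labels call them biological replicates. The files deposited by the authors hold unnormalised counts of reads, 1 table a library. Tools listed without roles in the submitters' processing notes are STAR 2.6.1, HTSeq 0.9.1, DESeq2, cutadapt 1.4.2 and CASAVA 1.8.2, and the build listed is GRCm38.p6. The annotation release and strand setting are not given in the sources used here. The 5 rows that name no gene (25.6% to 26.4% of reads) were left out. Symbols and coordinates came from GENCODE M21, which matched 53360 of 53465 identifiers and left 105.

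Genes were kept with edgeR 4.0.16's default filter (minimum count 10, total 15) and scaled by TMM. Groups were compared by its quasi-likelihood test (two-sided), and p-values of 15951 genes were adjusted by Benjamini-Hochberg. Alternatives were DESeq2 1.42.0, limma-voom (limma 3.58.1), other scalings and filters, offsets for GC content and length (loess span 0.3), a replicate block, subsets of members and leaving out each library in turn. The principal-transcript length was added after seeing the data. Copies were sought with BLAST 2.17.0 (90% identity over at least 50% of the principal transcript). Scripts ran in Python 3.11.15 and R 4.3.3. In simulated data for this comparison on 15951 genes the test recovered 66%, 82%, 96% and 100% of 50 genes changed 1.2-fold, 1.3-fold, 1.5-fold and 2-fold, and 5.49% of its calls were unchanged genes. The changed genes were drawn only from genes above a minimum mean count. Far fewer genes were changed than were called in the data, and a single dispersion trend served both groups. These rates may therefore differ from those of the real comparison.

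Members and gene lists were chosen with earlier results of these data known. Core subunits and isoform families were named whatever their result. The values of 1 member counted in the totals are not reported here. Up to 4 called members per complex, class and direction with the largest change were named with values, and up to 3 genes per direction of each other list, by smallest p. The other members are given by counts or a fold change.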

Additional observations from a re-analysis of the deposited data

How the results depend on the processing

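Of the 64 called members 51 were called in the same direction in all 16 alternative fits (29 higher and 22 lower), and 19 of 29 that did not pass stayed so in all 16. Left-out libraries gave 30 to 37 higher and 18 to 26 lower subunits, and 7 to 10 and 11 to 16 for complex I. Without control replicate 1 or BMP-inhibited replicate 1, 3 Ndufaf factors were lower, a range of 3 to 5. Lower complex II subunits numbered 2 with limma-voom, upper-quartile factors, library totals alone, GC and length offsets, these offsets with the replicate block, or without BMP-inhibited replicate 2 (range 1 to 2), and higher ones 2 without BMP-inhibited replicate 1 (range 1 to 2). Lower complex V subunits numbered 4 with GC and length offsets, with or without the block, and 1 to 3 with a library left out. With those offsets Atp5g2 turned to -0.12 (adjusted p = 0.0216, or 0.0271 with the block) and Atp5o to -0.14 (0.00405 and 0.00339). Higher subunits numbered 21 without overlapping genes, which leaves 53 tested, and subunits changed at least 1.2-fold numbered 20 higher and 11 lower. The replicate block alone gave 34 higher and 24 lower subunits against 34 and 23; the numbers do not pair these libraries (correlations of same-numbered deviations -0.044, 0.0126 and 0.0326). Among the other lists, 2 complex II assembly factors were lower, against 1, with library totals alone, no count filter, GC and length offsets, the replicate block, both together, or without BMP-inhibited replicate 2. Without that library 2 complex III factors were higher, against 1. Higher complex IV factors numbered 2, against 4, with library totals alone or without control replicate 1 or 2. With the offsets 0 complex V factors were higher, against 1, and 8 import genes lower, against 4, or 2 without control replicate 3. Higher ubiquinone genes numbered 0 or 1, against 2, with library totals alone or without any 1 control library or BMP-inhibited replicate 3. Higher mitochondrial ribosomal genes numbered 13, against 21, without control replicate 2. The cause of these shifts was not tested. Few counts limit Cox4i2, Cox8b and Cox8c, with 5, 0 and 6 counts in all controls together.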
